A study of Mus musculus with 4 samples.

Results

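Hox genes encode homeodomain transcription factors that lie in 4 chromosomal clusters, and they were examined here in CD31+CD45- cells of the mouse brain by RNA-Seq. A gene was taken as a member if its symbol was Hox, a cluster letter from a to d and a number, which gave 36 of the 24873 genes listed. Of these, 11 lay in the Hoxa cluster on chromosome 6, 10 in the Hoxb cluster on chromosome 11, 9 in the Hoxc cluster on chromosome 15 and 6 in the Hoxd cluster on chromosome 2. Hoxd1, Hoxd11 and Hoxd12, which the annotation also holds, are not among the genes listed and could not be analysed. The study excluded genes with low counts, and whether this removed them was not tested. The rule uses no measured value.

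All 4 libraries came from mice of one genotype, given as Cdh5cre;Mgpflox/flox in the labels and as VE-cadherin cre/ERT2 Mgp fl/fl in the study. These mice carry loxP-flanked alleles of Mgp, a secreted inhibitor of bone morphogenetic proteins, and a tamoxifen-inducible Cre recombinase under the endothelial VE-cadherin promoter. The control group had 2 libraries from mice without tamoxifen, and the tamoxifen group had 2 libraries from mice injected daily for 5 days with 75 mg/kg from 10 weeks of age, with cells taken on day 9. Each library pooled cells of 3 mice, so that the spread below is that between pools, and the sexes within a pool are not given in the sources used here. The labels describe the cells as tdTomato+, while the study describes a CD31+CD45- sort. The libraries are headed by the letters C and A, of which A was read as arteriovenous malformation, the lesion that follows tamoxifen, since no label holds that letter.

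In the embryo, Hox genes are switched on in the order in which they lie in their cluster, and members with low numbers are expressed further towards the head than members with high numbers. Members of different clusters that share a number are called paralogs and have similar homeodomains. Hox expression in the nervous system begins in the hindbrain, and the forebrain and midbrain form without it, whereas many cells of the trunk, the limbs and the blood keep a Hox pattern into adult life. Pbx and Meis proteins bind DNA together with Hox proteins, and Polycomb and Trithorax proteins keep Hox genes off and on.

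The stretch that encodes the third helix of the homeodomain, which reads the DNA, shows how alike the paralogs are in sequence. It is printed for paralog 13, whose members had unlike levels. The sequences are the coding strand of GRCm39 with the GENCODE M39 annotation, each is an exonic coding stretch of 12 codons, and capitals mark the positions that differ among the members of the same number.
Hoxa13, chr6:52235917-52235952, minus strand: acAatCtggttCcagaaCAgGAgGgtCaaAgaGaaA
Hoxb13, chr11:96086981-96087016, plus strand: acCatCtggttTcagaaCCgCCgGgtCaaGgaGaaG
Hoxc13, chr15:102835780-102835815, plus strand: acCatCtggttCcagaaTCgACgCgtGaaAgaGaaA
Hoxd13, chr2:74500409-74500444, plus strand: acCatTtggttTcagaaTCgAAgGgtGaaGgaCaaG
The members of paralog 13 differed at 12 of these positions. Over the whole homeobox of 180 bases, pairs with the same number had a median identity of 81.7% (range 67.2 to 93.9%, 37 pairs), and pairs with different numbers had 61.1% (range 46.1 to 88.9%, 593 pairs). The longest run of identical bases between the canonical transcripts of any pair was 52 bases, shared by Hoxa6 and Hoxb4, and it was the only run over 50 bases among 630 pairs.

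Hox transcripts were close to absent in the control libraries and were present in both tamoxifen libraries. The control libraries held 65 and 58 reads on all 36 members together, out of 37475154 and 41025014 reads on genes. The tamoxifen libraries held 2480 and 2850 Hox reads out of 35387438 and 49799321. Per 1000000 reads on genes this was 1.73 and 1.41 in the controls and 70.1 and 57.2 after tamoxifen. All 36 members had at least 1 read in each tamoxifen library, against 16 and 11 members in the controls. The study excluded genes with low counts, so members without control reads are listed only through their tamoxifen reads. In both control libraries 19 members had 0 reads, which 5.71% of all listed genes had, and 30 members had at most 3 reads in each control, which 14.4% of all listed genes had. A count of 0 allows a level of up to 4.11 and 3.75 normalized counts in the controls, the value of 3 reads, so that lower levels were not detectable at this depth. Even after tamoxifen the levels stayed modest, since 11 members reached a mean of 100 normalized counts and the highest mean was 241.

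In 34 of the 36 members both tamoxifen libraries lay above both controls, as was so for 44.0% of all listed genes. No member had both tamoxifen libraries below both controls, as 34.6% of all listed genes had, and the groups of Hoxd8 and Hoxd10 overlapped. Permuting 2 against 2 libraries exactly gives a two-sided p of 0.333 at the least for any 1 gene, and calls therefore rest on limma across all genes, which shares the spread between them. A gene was called at an adjusted p under 0.05 and a log2 fold change beyond 1 in either direction, on log2(normalized count + 1), a scale that understates the change of low genes. Of the 22 members whose mean reached 10 normalized counts, 21 were called higher and 0 lower, where 28.6% and 16.0% of the 20485 genes tested were called. With the controls near 0, a member passed that minimum mostly through its tamoxifen level, so the count over these 22 says little by itself. With no minimum, limma called 31 of the 36 higher and 0 lower, where 27.5% and 12.7% of all listed genes were called. The list itself leaves out genes with low counts, which the study excluded. Members with few control reads were thus listed mostly through their tamoxifen reads. This count and that of the 34 separate members therefore also say little by themselves. No member was lower at an unadjusted p under 0.05 in limma, edgeR or DESeq2, that is 0 in each, and each of these tools called 0 lower and 21 higher. Among all 3570 listed genes with at most 3 reads in each control, 1198 reached the minimum and 1190 of these were called higher, so that a call is the rule for genes with such controls. Of the 3570, 269 reached a tamoxifen mean of 100.

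The count of higher against lower genes depended on the scaling. Over all tested genes 5867 were higher and 3284 lower, with a median log2 fold change of 0.05. After rescaling to equal totals these were 7206 and 1838 with a median of 0.52, and after quantile normalization 4615 and 5509 with a median of -0.23. The Hox members called higher numbered 21 and 20 under these scalings, a count that near-absent control reads largely fix. The median log2 fold change of the 36 members, with no minimum, was 4.29, beside 0.17 over all listed genes. With members that had no control read set at the 3-read limit it was 3.11 over 34 members, leaving out Hoxa13 and Hoxd4, whose tamoxifen means lay under that limit.

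**Figure D1:**
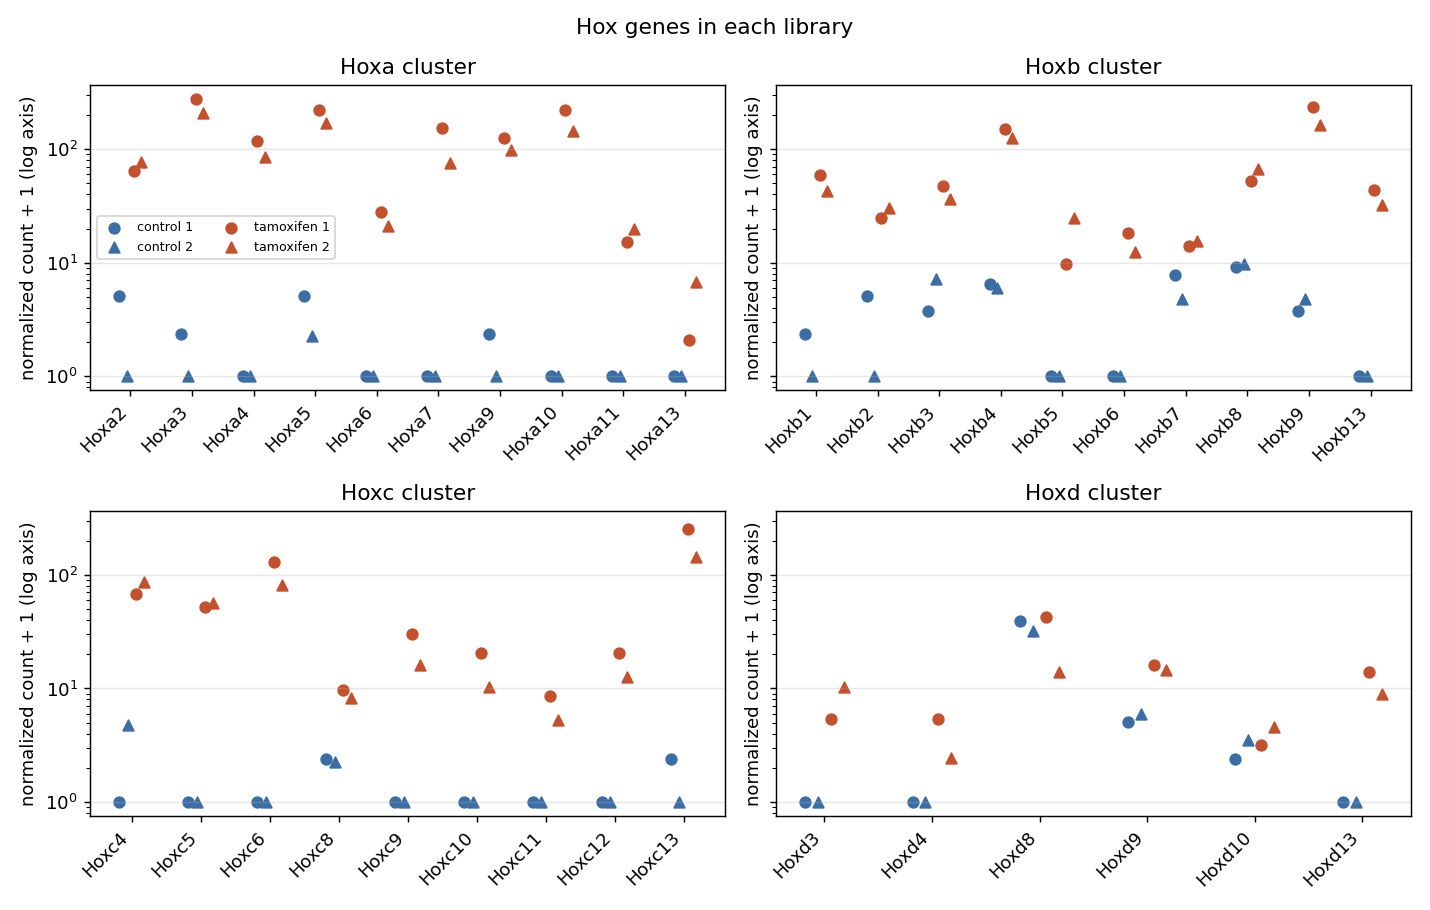
Normalized counts plus 1 on a log axis for 35 Hox genes in each library, 1 panel per cluster, with members ordered by paralog number; blue marks are the 2 control libraries, orange marks the 2 tamoxifen libraries, circles library 1 and triangles library 2. In the Hoxa, Hoxb and Hoxc panels every orange mark sits above the blue marks of the same gene, and in the Hoxd panel the marks of Hoxd8 and Hoxd10 overlap.

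The clusters differed in how much Hox RNA they gave. Measured as normalized counts per kilobase of exon, the Hoxa cluster held 50.3 and 50.7% of the Hox signal in the tamoxifen libraries, the Hoxb cluster 24.1 and 26.3%, the Hoxc cluster 22.7 and 20.7% and the Hoxd cluster 2.92 and 2.28%. The mean shares of Hoxb and Hoxc, 25.2 ± 1.6% and 21.7 ± 1.4% (SD, n = 2), lay close to each other, and these shares have no test. With no minimum on levels, 10 of 11 Hoxa, 9 of 10 Hoxb, 9 of 9 Hoxc and 3 of 6 Hoxd members were called higher, and with the minimum 9 of 9, 7 of 7, 5 of 5 and 0 of 1 were. Over all genes 27.5% were called higher without the minimum and 28.6% with it. Members reached the minimum mostly through their tamoxifen level, so the counts with it say little by themselves. Most were also listed through their tamoxifen reads, so the counts without the minimum are limited in the same way. Without tamoxifen library 2 the Hoxb count was 4. In the Hoxd cluster only Hoxd8 reached the minimum, so that the 0 calls with it concern that 1 gene and not the cluster. Hoxd8 was not higher at an unadjusted p under 0.05 in limma, edgeR or DESeq2, and these called 0. Median log2 fold changes without the minimum were 6.17 for Hoxa, 3.94 for Hoxb, 4.46 for Hoxc and 1.66 for Hoxd.

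The Hoxa cluster had the highest levels and almost no control reads. Hoxa3 (chr6:52146041-52190316, GRCm39, minus strand), a gene of the pharyngeal arches and hindbrain that also acts in migrating endothelium, was at 1.37 and 0 normalized counts in the controls and at 276 and 206 after tamoxifen. Its log2 fold change was 7.28 ± 0.65 (SE, adjusted p = 9.03e-05 in limma), and the ratio of reads was 358 with a 95% counting interval of 64.0 to 14174, since it rested on 1 control read. Both tamoxifen libraries were far above both controls. Hoxa5, known for patterning the neck and lung and for restraining angiogenesis, was at 4.11 and 1.25 in the controls and at 218 and 168 after tamoxifen (log2 fold change 5.83 ± 0.62, adjusted p = 0.000179 in limma). Hoxa10, a posterior gene of the reproductive tract and of blood progenitors, had 0 reads in both controls and 218 and 144 normalized counts after tamoxifen, at least 46.1-fold higher when the controls are set at the 3-read limit (adjusted p = 5.84e-05 in limma). In all 11 members of the cluster both tamoxifen libraries lay above both controls, as in 44.0% of all listed genes. Hoxa13, a gene of the distal limb and gut, was the lowest, with 0 control reads and only 1.08 and 5.75 normalized counts.

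In the Hoxb cluster some members already had control reads. Hoxb9 (chr11:96162150-96167421, plus strand), which acts in the thoracic skeleton, was at 2.74 and 3.75 in the controls and at 233 and 161 after tamoxifen, a log2 fold change of 5.53 ± 0.55 (adjusted p = 0.000134 in limma). Hoxb4, a gene known for expanding hematopoietic stem cells, was at 5.48 and 5.01 and then at 151 and 124 (4.47 ± 0.53 on the log2 scale, adjusted p = 0.000284 in limma). Hoxb8, active in spinal cord and in myeloid progenitors, was at 8.22 and 8.76 and then at 50.9 and 66.1 (2.64 ± 0.55, adjusted p = 0.00452 in limma). Hoxb8 had the highest control mean of this cluster, and the differences in fold change between members were not tested. Hoxb13, the most posterior member, had 0 control reads and was at 42.3 and 30.9, and Hoxb1, the most anterior, was at 1.37 and 0 and then at 58.5 and 41.7. The other 5 members had tamoxifen means between 13.7 and 40.9 normalized counts, and Hoxb7 was the only member of the cluster not called without the minimum (6.85 and 3.75, then 13.01 and 14.4).

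The Hoxc cluster, which has no members with numbers 1 to 3, was led by its last gene. Hoxc13 (chr15:102829538-102837249, plus strand), a regulator of hair and nail keratins, was at 1.37 and 0 in the controls and at 250.4 and 144 after tamoxifen, with a log2 fold change of 6.95 ± 0.68 (adjusted p = 0.000123 in limma). Hoxc6, a thoracic gene, had 0 control reads and was at 130.1 and 79.8, at least 26.7-fold higher (adjusted p = 9.92e-05 in limma). Hoxc4 was at 0 and 3.75 and then at 67.2 and 84.8 (5.13 ± 0.82, adjusted p = 0.0012 in limma). All 3 had separate groups, with the controls at or near 0. Between these ends, Hoxc8, Hoxc9, Hoxc10, Hoxc11 and Hoxc12 had tamoxifen means of 5.95 to 22.2 normalized counts.

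The Hoxd cluster stood apart by its low tamoxifen levels and by Hoxd8. Hoxd8 (chr2:74534959-74538297, GRCm39, plus strand), a gene of the trunk mesoderm, was at 38.4 and 31.3 normalized counts in the controls, or 28 and 25 reads, and at 41.2 and 12.9 after tamoxifen, or 38 and 18 reads. One tamoxifen library lay above both controls and the other below both, and the difference of -0.56 ± 0.67 on the log2 scale was within that spread (adjusted p = 0.498 in limma). In the controls these were 28 of 65 and 25 of 58 Hox reads. Without the first tamoxifen library the difference was -1.35 and without the second it was 0.24. Hoxd9 was at 4.11 and 5.01 and then at 15.2 and 13.7, and Hoxd13, a gene of the digits, had 0 control reads and was at 13.01 and 7.91. Both had separate groups but means under 10 over the 4 libraries. Hoxd3, known from angiogenic endothelium, had 0 control reads and was at 4.34 and 9.35, and Hoxd10, known from quiescent endothelium, was at 1.37 and 2.50 and then at 2.17 and 3.59. Hoxd3 and Hoxd4 share 38.2 and 52.0% of their exon bases with another gene on the same strand, each other among them, so that their reads may not be separable. Without Hoxd8, the Hoxd members summed to 5.48 and 7.51 normalized counts in the controls and to 39.02 and 35.9 after tamoxifen.

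**Figure D2:**
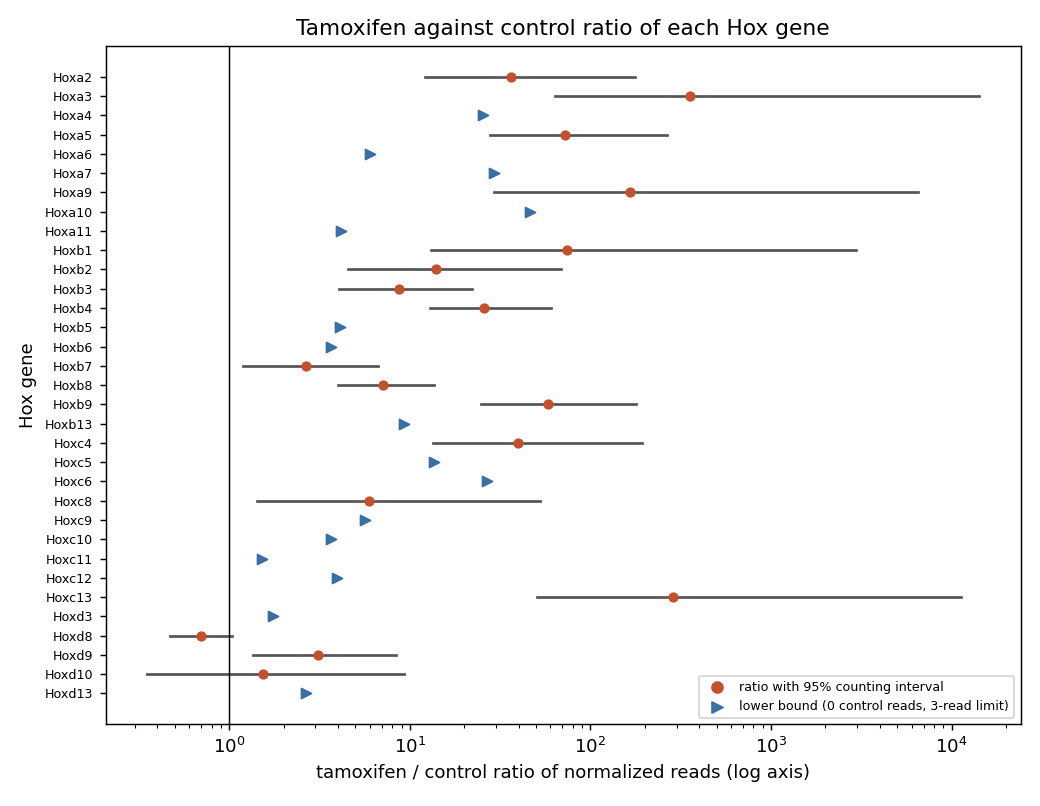
Ratio of normalized reads, tamoxifen over control, on a log axis for 33 Hox genes, without Hoxa13 and Hoxd4, which had no control read and a tamoxifen mean below the 3-read limit of the controls; orange points carry a 95% counting interval, and blue arrows are lower bounds for genes with 0 control reads. The intervals of Hoxd8, 0.471 to 1.04, and Hoxd10, 0.352 to 9.24, include 1, and the other 15 intervals lie above 1.

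Read by paralog number, all parts of the Hox series were present after tamoxifen. Members 1 to 3, expressed furthest towards the head in embryos, held 18.0 and 21.0% of the Hox signal per kilobase, members 4 to 8 held 47.9 and 49.0%, and members 9 to 13 held 34.2 and 29.9%. These bands have 7, 15 and 14 members. Without the minimum 7 of 7, 13 of 15 and 11 of 14 were called higher, and with it 6 of 6, 9 of 10 and 6 of 6. The shares over all genes were 27.5% without the minimum and 28.6% with it. Members reached it, and the list itself, mostly through their tamoxifen level. The count for members 1 to 3 was 3 without tamoxifen library 1 and 3 without library 2. Levels did not fall in steps from low to high numbers within a cluster. In the Hoxa cluster, the level per kilobase was 103 ± 18.7 for Hoxa5 (mean ± SD, n = 2), 19.8 ± 3.27 for Hoxa9 and 54.9 ± 15.7 for Hoxa10.

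Levels differed among genes that share a number. Hoxa3, Hoxb3 and Hoxd3 were at 40.1, 9.07 and 0.634 normalized counts per kilobase in tamoxifen library 1 and at 29.9, 6.86 and 1.37 in library 2. The order was the same in both libraries. For paralog 13, whose stretch for the third helix is printed above, Hoxc13 was at 102 and 58.4 per kilobase, Hoxb13 at 18.9 and 13.8, Hoxd13 at 5.24 and 3.18 and Hoxa13 at 0.432 and 2.29. The gap between Hoxc13 and Hoxa13 thus far exceeded that between the libraries. Over all members, Hoxa5 had the highest level per kilobase in both tamoxifen libraries and Hoxb9 was the third in both, while Hoxc13 was the second in library 1 and the fourth in library 2.

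**Figure D3:**
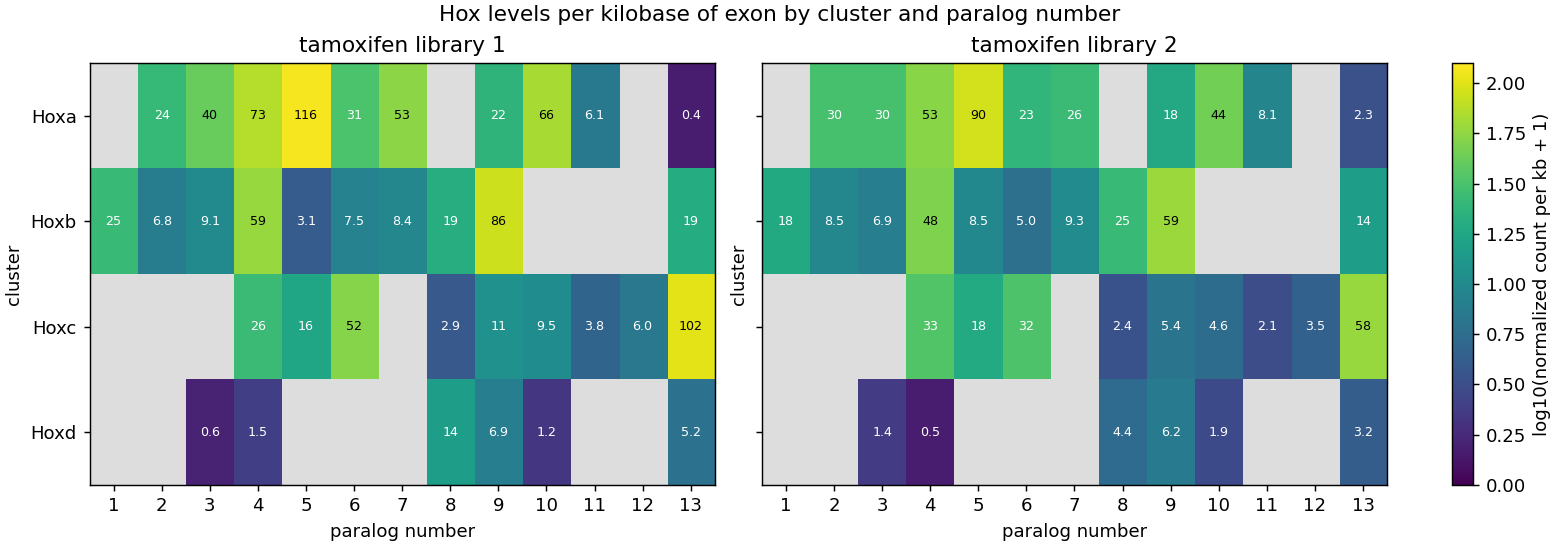
Normalized counts per kilobase of exon in each tamoxifen library by cluster and paralog number, printed in each cell and coloured on a log10 scale; grey cells show no value. Hoxa5 is the brightest cell in both grids, at 116 and 89.6, and the highest cell of the Hoxd row is Hoxd8 in library 1, at 13.99.

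The DNA just before the start of the canonical transcripts of the Hox genes was rich in CpG, the dinucleotide at which vertebrate DNA is methylated. For some members, such as Hoxa9 and Hoxd4, this DNA lies inside the annotated span of the gene. Over the 250 bases before the canonical start, the observed over expected CpG ratio had a median of 0.755 in the 36 members and of 0.474 in 21757 protein-coding genes, and it exceeded 0.6 in 63.9% and 38.8% of them. The stretches of Hoxa5 and Hoxa13 are shown, with CpG in capitals, as those of a member with a high level and one with a low level that are both rich in CpG. They come from GRCm39 and GENCODE M39 and lie outside the annotated span of their own gene. The Hoxa5 stretch lies within the span of Hoxa3, and overlap with exons of other genes was not tested.
Hoxa5, chr6:52181568-52181817, minus strand: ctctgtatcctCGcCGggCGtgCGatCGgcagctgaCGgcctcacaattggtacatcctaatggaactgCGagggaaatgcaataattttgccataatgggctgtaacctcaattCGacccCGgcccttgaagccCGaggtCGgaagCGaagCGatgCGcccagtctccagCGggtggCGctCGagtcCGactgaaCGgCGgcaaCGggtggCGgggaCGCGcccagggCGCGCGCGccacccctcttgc
Hoxa13, chr6:52237823-52238072, minus strand: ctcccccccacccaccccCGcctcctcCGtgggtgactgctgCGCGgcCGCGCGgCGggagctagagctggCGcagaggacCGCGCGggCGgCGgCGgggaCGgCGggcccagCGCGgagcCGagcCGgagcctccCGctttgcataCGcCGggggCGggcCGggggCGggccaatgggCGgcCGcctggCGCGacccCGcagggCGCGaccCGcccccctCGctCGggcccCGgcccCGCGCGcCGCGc
The stretches hold 28 and 43 CpG, with observed over expected ratios of 1.11 and 0.967, and the genes were at 103 and 1.364 normalized counts per kilobase after tamoxifen. Searched on both strands, CCAAT was found in 63.9% of the Hox stretches and in 36.5% of all, and the TATA box letters TATAAA were in 16.7% and 11.9%. GGGCGG was found in 38.9% and 36.3%, TGATTNAT, the letters of a joint Hox and Pbx site, in 8.33% and 2.55%, and TTTATG, the core of a Cdx site, in 11.1% and 9.997%. These are matches of letters and not sites shown to be bound.

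Several noncoding genes lie inside the Hox clusters. In 6 of the 7 listed both tamoxifen libraries lay above both controls, as in 44.0% of all listed genes. The groups of Hoxd3os1 overlapped (2.74 and 3.75, then 2.17 and 5.03 normalized counts). Of the 7, 3 were tested and all 3 were called higher, namely Hotairm1 (0 in both controls, then 21.7 and 28.8 normalized counts), Hoxaas2 (0 in both, then 59.6 and 51.0) and Mir196a-1 (0 in both, then 31.4 and 10.1). With 0 control reads, these 3 reached the minimum through their tamoxifen level alone, so that the count says little by itself. Of all tested genes 28.6% were called higher. Hotairm1 and Hoxaas2 lie antisense to Hoxa members, and reads of the Hox gene and its antisense partner can be told apart only where counting used the strand, which is not given in the sources used here. Hoxa3 has 23.7% and Hoxb3 51.5% of their exon bases under another gene on either strand, while Hoxa5, Hoxb4 and Hoxb8 have none. Mir196a-1 encodes a microRNA known to target Hoxb8. It is shown in RNA letters from RefSeq with its seed, bases 2 to 8, in capitals, followed by the site in the 3′ UTR of Hoxb8, where capitals mark the bases identical to the reverse complement of the microRNA.
miR-196a-5p, chr11:96156013-96156034, plus strand: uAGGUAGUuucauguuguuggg
Hoxb8 site, chr11:96175714-96175735, plus strand: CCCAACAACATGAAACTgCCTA
The site was identical at 21 of 22 bases, and no other of 20751 annotated 3′ UTRs reached this. Perfect matches to the seed lay in the 3′ UTR of 8 of 36 Hox genes, or 22.2%, and in 6.74% of all. The 3′ UTR of Hoxb8 had 0 such matches, and the base that differs in its site lies opposite the seed. An mRNA library does not measure the mature microRNA. In these libraries the Mir196a-1 gene and Hoxb8 were both higher after tamoxifen.

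Of 9 genes for the TALE homeodomain cofactors, the partners of Hox proteins, 4 were called higher and the other 5 were not called, where 28.6% of all tested genes were called higher. Meis2 rose from 312 and 285 normalized counts to 4220 and 5663 (log2 fold change 4.03 ± 0.20, adjusted p = 8.49e-06 in limma), and Meis1 from 27.4 and 38.8 to 904 and 1357 (5.04 ± 0.36, adjusted p = 3.8e-05 in limma). Meis3 and Pbx4 rose by 2.50 and 3.14, and both calls were lost without either tamoxifen library (adjusted p from 0.104 to 0.209 in limma). Pbx2, Pbx3, Pknox1 and Pknox2 were among those not called, and Pbx2 was at 3181 and 3237 in the controls and at 3224 and 2671 after tamoxifen. Unlike the Hox genes, Pbx2 and Meis2 thus had clear control levels.

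Among regulators upstream of Hox genes, 5 of 10 tested were called higher, beside 28.6% of all tested genes, and the other 5 were not called. Cdx1, a caudal homeodomain factor that activates central Hox genes, was at 0 and 1.25 in the controls and at 211 and 123 after tamoxifen (6.76 ± 0.67, adjusted p = 0.000133 in limma). Cyp26a1, which degrades retinoic acid, was at 1.37 and 2.50 and then at 177 and 185. Wnt3a, a signal of the posterior embryo, had 0 control reads and was at 80.2 and 36.7. Cdx1, Cyp26a1 and Wnt3a reached the minimum mostly through their tamoxifen level, so that the count of 5 says little by itself. Gdf11, which sets the trunk to tail boundary, rose by 3.06 and Aldh1a2, which makes retinoic acid, by 1.52 on the log2 scale. Both calls were lost without either tamoxifen library, and Aldh1a2 was at 0.40 after quantile normalization (adjusted p = 0.424 in limma). The retinoic acid receptors Rara, Rarb and Rarg were among those not called, as was Egr2.

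Of 16 Polycomb genes, which encode chromatin regulators of Hox genes, 1 was called higher and 2 lower, where 28.6% and 16.0% of all tested genes were called. At an unadjusted p under 0.05 in limma, with no minimum on the fold, 7 were higher and 7 lower. Ezh2, the methyltransferase of dividing cells, went from 1190 and 1020 to 5189 and 5195 (2.24 ± 0.16, adjusted p = 3.55e-05 in limma), and its relative Ezh1 from 9839 and 9323 to 2588 and 2112 (-2.03 ± 0.17, adjusted p = 6.22e-05 in limma). Phc3, a subunit of the other Polycomb complex, fell by 1.34. Of 10 Trithorax genes Ash2l and Psip1 were called higher, by 1.43 and 1.63, and the other 8 were not called. Kmt2a, the methyltransferase best known for keeping Hox genes active, was at 17990 and 14059 and then at 9159 and 10453 and did not pass the fold threshold (-0.70 ± 0.20, adjusted p = 0.017 in limma).

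Of 17 genes that flank the Hox clusters, 5 were called higher and 1 lower, and the share called higher was close to the 28.6% of all tested genes. Calcoco2, at 0 and 3.75 in the controls, reached 1407 and 850.5, and Ttll6, at 4.11 and 0, reached 282 and 408, and both lie beyond the Hoxb13 end of the Hoxb cluster. Skap2, beside the Hoxa cluster, rose by 2.18, Hnrnpa1 by 1.86 and Lnpk by 1.76, and Snx11 fell by 1.40. The other 11, such as Hibadh, Cbx1 and Mtx2, were not called.

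Many transcription factors of other body regions were higher as well. Of 14 factors listed for the forebrain and midbrain, 13 were called higher, beside 28.6% of all tested genes. Whether their expression is confined to these regions was not examined. Dlx1 went from 83.6 and 105 to 2273 and 3595, Pax6 from 61.6 and 75.1 to 1292 and 2973 and Dlx2 from 63.0 and 38.8 to 1434 and 2492. Six3 was not called. DESeq2 called 12, without Nkx2-1, which was also not called in limma with no minimum on levels. After quantile normalization Nkx2-1, at 0.84, and Pax2, at 1.94 on the log2 scale, were not called. Of 9 limb, heart and trunk factors 6 were higher, with Tbx18, Tbx15 and Pax3 the most abundant of them, and 3 were lower, namely Meox1, Tbx4 and Pitx1. The calls of Tbx18, Tbx15 and Pitx1 were lost without either tamoxifen library, and Tbx18 was at 0.33 and Tbx15 at 1.41 after quantile normalization (adjusted p = 0.374 and 0.118 in limma). Of 8 tested homeobox genes related to Hox, Dlx5, Cdx1, Msx2, Gsx1 and Gsx2 were higher, the endothelial and blood factors Hhex and Hlx were lower, and Msx1 was not called. Of 13 genes linked to Hox proteins as targets, 8 were higher, with Ncam1, Ccnd1 and Eya1 the most abundant, Lmo2 and Mecom were lower, and Epha7, Six2 and Bmp4 were not called.

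Markers of many cell types moved with the Hox genes, and their part in the Hox result was not tested. In bulk samples, fewer cells of a type and less RNA per cell cannot be told apart. The 6 endothelial markers, which check the label of the sort, were all called lower, and their summed level was 536888 and 541948 normalized counts in the controls and 99971 and 53500 after tamoxifen, with none at 0. Of the 6 pericyte and smooth muscle markers limma called 0, as did edgeR and DESeq2, with 1 lower at an unadjusted p under 0.05 in limma, 1 lower and 1 higher in edgeR and 1 higher in DESeq2, and their sum was 21758 and 37797 and then 23582 and 48672. The 5 fibroblast markers were all higher, from 1712 and 2439 to 61493 and 50945. All 5 neutrophil markers rose, from 238 and 185 to 91614 and 68602, and so did all 3 leukocyte markers, from 87.7 and 160.2 to 6173 and 4529, including Ptprc, which encodes the CD45 that the sort excludes. Of 6 blood progenitor markers Kit, Runx1, Myb and Mpo were higher, with Mpo going from 4.11 and 8.76 to 5602 and 3969, and Cd34 and Gata2, which endothelium also expresses, were lower. Cd34, at 58049 and 61112 in the controls and 16282 and 9812 after tamoxifen, was the largest part of their sum, which was 76584 and 80906 and then 31510 and 20645. All 5 pluripotency markers rose, from 39.7 and 53.8 to 30296 and 22534, and all 4 skeletal muscle markers, from 16.4 and 3.75, with 1 and 2 of them at 0, to 2266 and 1774. Of 4 neuronal markers Rbfox3 and Tubb3 were higher, Snap25 and Syt1 were not called, and the sum went from 471 and 720 to 4542 and 7771. Mgp, the targeted gene, was at 1094 and 1352 in the controls and at 945 and 909 after tamoxifen (-0.39 ± 0.18, adjusted p = 0.0986 in limma).

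The tamoxifen libraries also differed from each other, and the Hox genes were higher in library 1. The normalized counts of all listed genes summed to 38352708 in library 1 and 35800643 in library 2. The summed Hox level was 2688 and 2049 normalized counts, a ratio of library 1 to library 2 of 1.31. Of the 36 members, 25 were higher in library 1, and the share of all listed genes that were was not computed. By cluster the ratio was 1.31 for Hoxa, 1.20 for Hoxb, 1.42 for Hoxc and 1.64 for Hoxd. Without Hoxd8 the Hoxd ratio was 1.09. The same ratio was 1.34 for the neutrophil, 1.363 for the leukocyte, 1.34 for the pluripotency, 1.28 for the skeletal muscle, 1.21 for the fibroblast, 1.53 for the blood progenitor and 1.87 for the endothelial markers. It was 0.578 for the forebrain and midbrain factors, 0.584 for the neuronal, 0.847 for the TALE cofactors and 0.485 for the pericyte and smooth muscle genes. With 1 library on each side these ratios have no replicate check.

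**Figure D4:**
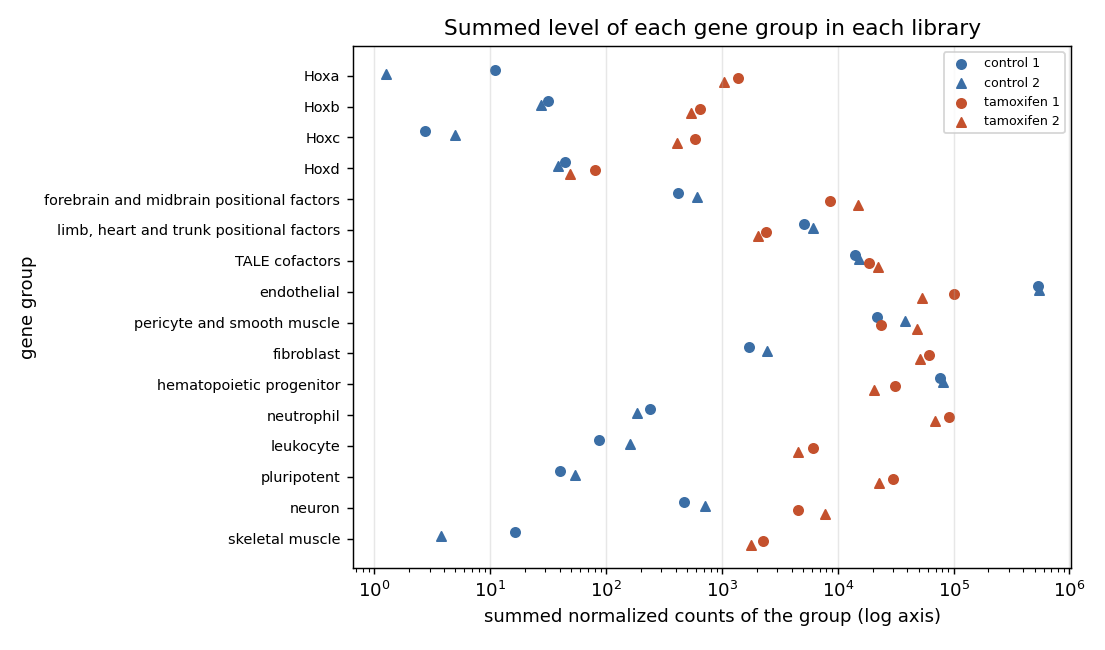
Summed normalized counts on a log axis for each Hox cluster and each list of other genes, with blue marks for the 2 control and orange marks for the 2 tamoxifen libraries. The Hoxa, Hoxb and Hoxc sums lie further right after tamoxifen, as do the neutrophil, pluripotent and forebrain sums, while the endothelial sum lies further left.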

How the data were processed

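Reads were aligned by the authors with STAR 2.7.10a to GRCm39 and normalized with DESeq2 1.36.0. The kit was stranded, and the annotation release, the strand setting of the counting and the limit for low counts are not given in the sources used here. The deposited signal is a normalized count, the reads on a gene divided by a size factor of the library, and 100% of values were whole reads within 0.01 reads once multiplied back. The main test was limma 3.58.1 (R 4.3.3, trended eBayes) on log2(normalized count + 1), restricted to genes whose mean reached 10, with Benjamini-Hochberg adjustment over all genes tested. edgeR 4.0.16 (quasi-likelihood) and DESeq2 1.42.0 on the recovered reads, other pseudocounts, minima, scalings and left-out libraries were alternatives, and the limma and edgeR fits were tested on simulated data. Levels between genes are per kilobase of exon (GENCODE M39). Intervals and 3-read limits cover counting error only. Members and lists were chosen with earlier results of these data known. Values per library are given for the 3 highest members of each cluster, those tested and not called, and, in other lists, the 3 highest called in each direction or all of a count of up to 5. The values of 1 Hox gene and 2 listed genes are not reported here, though counts and sums include them. Tamoxifen libraries are numbered as in the table's headings.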

Additional observations from a re-analysis of the deposited data

How the results depend on the processing

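Of 310 comparisons of a tested Hox gene under an alternative setting, 299 kept direction and call, 10 lost the call and 1 changed sign. Calling at adjusted p alone, the replicate block and limma without the trend leave the fold change as it is, so that only the call could differ there. The calls lost were those of Hoxa2, Hoxb2, Hoxb3, Hoxb8 and Hoxc4, with adjusted p from 0.0523 to 0.164, and the change of sign was Hoxd8 at 0.24 without tamoxifen replicate 2; the cause was not tested. A minimum mean of 100 left 2 Hox genes tested and called, which were 1, 1 and 0 of Hoxa, Hoxb and Hoxc and 1, 0 and 1 of paralogs 1 to 3, 4 to 8 and 9 to 13, because fewer genes were tested. Without a minimum 9 Hoxc, 3 Hoxd and 11 of paralogs 9 to 13 were called. Leaving out 1 library gave 16 to 21 Hox genes higher. Without tamoxifen replicate 1 or 2, where the lone sample is assumed to vary like the others, 17 and 16 were higher; Hoxb ranged from 4 to 7, with 4 without tamoxifen replicate 2, and paralogs 1 to 3 from 3 to 6, with 3 without either tamoxifen library. Called at adjusted p alone, 31 list genes were lower instead of 18. With the replicate block 21 Hox genes were higher and 0 lower, and over all genes 6064 and 3461; same-numbered libraries shared only a number, their deviations correlating at 0.0251 across 20485 genes. Cluster shares were also computed from the same counts divided by the exon bases shared with no other gene on the same strand. This alternative was chosen after seeing the data, and the mean shares stayed within the spread between libraries. It recounted no reads and left overlap with antisense genes in place.

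Uncalled list genes changed sign as follows, and the cause was not tested. Rescaling to equal totals gave 0.34 for Pbx2, 0.31 for Pbx3, 0.36 for Pknox1 and 0.39 for Snap25. Quantile normalization gave 0.055 for Pbx2, -0.50 for Pknox2, -0.21 for Bmp4, -0.24 for Epha7, -0.80 for Six3 and -0.87 for Syt1. edgeR gave -0.00698 for Pknox2 and 0.14 for Snap25, and DESeq2 0.16 for Snap25. With 1 library left out the values were Hoxd8 from -1.35 to 0.24, Pbx2 from -0.26 to 0.0071, Pknox2 from -0.20 to 0.21, Rara from -0.13 to 0.46, Six3 from -0.62 to 1.10, Snap25 from -0.95 to 0.80 and Syt1 from -0.58 to 1.01. Of 96 list genes called, 30 lost the call under some alternative, 25 of them without tamoxifen replicate 1 and 26 without replicate 2. Other settings ended 10 calls, with 8 under quantile normalization (Aldh1a2, Itga8, Meis3, Mir196a-1, Nkx2-1, Pax2, Tbx15 and Tbx18) and 2, Phc3 and Snx11, after rescaling to equal totals. Depth limits the Hox genes most in the controls, where 30 members had at most 3 reads in each library.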
